A study of Mus musculus with 16 samples.

Results

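Snord32a, Snord33, Snord34 and Snord35a are small nucleolar RNAs (snoRNAs) that are encoded in introns of Rpl13a, the gene of a protein of the large ribosomal subunit. Their rows were found by symbol, and all 4 were present among the 18488 features of the table of cortical non-coding RNAs (ncRNAs). Small RNA had been sequenced from the prefrontal cortex of 8 PS19 mice and 8 WT littermates at about 9.6 months of age, with equal numbers of both sexes per genotype and 1 library per mouse. The PS19 mice were heterozygous (PS19+/-) for a human MAPT transgene with the P301S mutation, which is driven by the mouse prion promoter and so is not limited to a single type of neuron. The WT mice lacked it, neither group was treated, and all mice were perfused before dissection. The transgene itself could not be checked in a table of small RNAs. The neuronal miRNAs miR-124-3p, miR-9-5p, miR-128-3p and miR-132-3p were present in every library, and their summed level overlapped between the genotypes. The comparison asks whether these snoRNAs differ in abundance in the cortex of mice with tauopathy.

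Box C/D snoRNAs carry the conserved sequence boxes C and D near their ends, bind fibrillarin and its partner proteins, and guide the 2′-O-methylation of ribosomal RNA by pairing with it next to a box D. Most are cut out of introns of genes for ribosome assembly and translation, so that the host transcript and the snoRNA come from the same primary RNA. The 4 snoRNAs of Rpl13a are also known from work on lipid-induced and oxidative stress, in which they accumulate outside the nucleolus and loss of the locus made cells more resistant. Snord32a and Snord33 are known to guide neighbouring sites of 18S rRNA, and Snord34 and Snord35a sites of 28S rRNA.

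The mature parts are shown because the boxes and the guide stretches that define these RNAs can be read in them. Sequences are those of GENCODE release M21 on GRCm38, written 5′ to 3′ along the transcribed strand, with the core of box C and box D in capitals.
Snord32a: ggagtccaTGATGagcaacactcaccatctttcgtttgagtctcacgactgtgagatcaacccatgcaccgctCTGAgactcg
Snord33: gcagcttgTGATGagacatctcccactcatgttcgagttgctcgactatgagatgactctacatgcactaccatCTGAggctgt
Snord34: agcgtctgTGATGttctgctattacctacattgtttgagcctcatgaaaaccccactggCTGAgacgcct
Snord35a: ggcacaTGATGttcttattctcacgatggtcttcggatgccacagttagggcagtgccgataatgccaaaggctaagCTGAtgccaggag
Each of the 4 members held TGATG in its first 15 bases and CTGA in its last 15 bases on the transcribed strand. Among 454 annotated mouse snoRNA genes of 60 to 100 bases, 74.7% held the first motif there, 81.1% the second and 71.1% both.

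Rpl13a lies on chromosome 7 at chr7:45125558-45128761 on the minus strand, and the 4 snoRNAs lie on the same strand, each in an intron of its own in the transcript of 8 exons. Snord32a (chr7:45127382-45127464, 83 bases) is in intron 2, 31 bases after the exon before it. Snord33 (chr7:45126864-45126947, 84 bases) is in intron 4, 43 bases after its exon. Snord34 (chr7:45126601-45126670, 70 bases) is in intron 5, 38 bases after its exon, and Snord35a (chr7:45126346-45126435, 90 bases) is in intron 6, 42 bases after its exon. The host introns are short, at 171 to 240 bases. The same stretch is also annotated as part of the readthrough gene Gm45713.

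**Figure D1:**
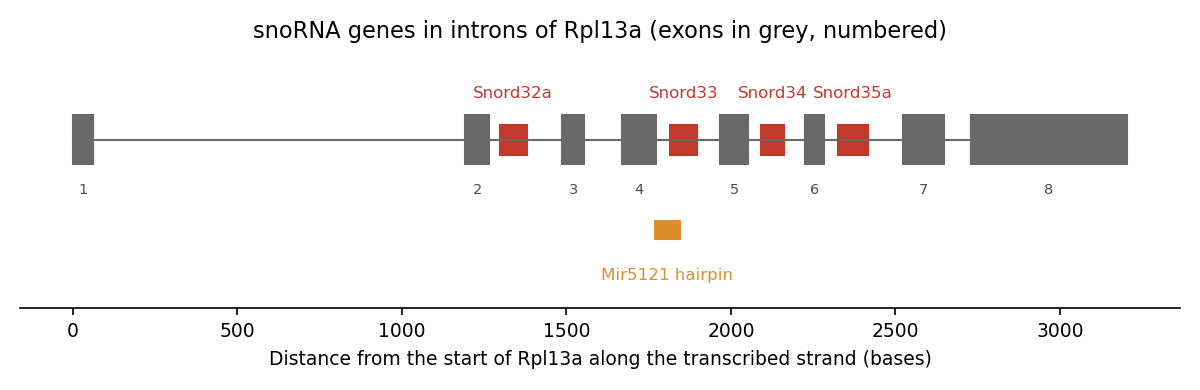
Map of Rpl13a along its transcribed strand, in bases from the start of the gene. Grey boxes are its 8 exons, red boxes the 4 snoRNAs and the orange box the miRNA hairpin that overlaps Snord33; each snoRNA has an intron to itself.

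In Snord32a and Snord33 the stretch directly before box D could pair with neighbouring positions of a mouse 18S rRNA sequence. With G-U pairs allowed, bases 62 to 73 of Snord32a paired with 12 bases of it at positions 1331 to 1342, of which 10 were Watson-Crick pairs. Bases 62 to 74 of Snord33 paired with 13 bases at positions 1329 to 1341, of which 11 were Watson-Crick pairs. Positions are counted along the strand complementary to a GENCODE transcript of 1849 bases that is antisense to 18S rRNA, and can differ from the usual rRNA numbering. The bases opposite the fifth base before box D, where box C/D snoRNAs place the methyl group, were 1335 for Snord32a and 1333 for Snord33. Runs were ranked by Watson-Crick pairs and then by fewest G-U pairs. The first-ranked runs in Snord34 and Snord35a were 10 and 11 bases long and ended 49 and 29 bases before box D. The length of these first-ranked runs alone set the members little apart. A 28S sequence was not used here.

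Snord33 also overlaps an annotated miRNA. The mature mmu-miR-5121 of RefSeq (GRCm38.p6, chr7:45126925-45126945, minus strand) is printed with its seed, bases 2 to 8, in capitals, because it equals part of the snoRNA.
mmu-miR-5121: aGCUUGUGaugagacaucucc
It covers bases 3 to 23 of Snord33, including box C, and 30 of the 74 bases of its hairpin lie in the snoRNA. The 4 snoRNAs shared 53.1% to 66.3% of aligned positions in pairs, most in Snord32a and Snord33, with unbroken runs of 6 to 9 bases. How reads that match several annotations were assigned in the table was not stated, so the rows of Snord33 and mmu-miR-5121 may share reads.

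Per base of annotated length, the 4 snoRNAs of Rpl13a differed widely, from 130 for Snord32a down to 0.554 for Snord35a. Levels are the deposited normalized counts, that is, reads divided by a size factor for each library. Snord32a stood at 130 ± 33.7 normalized counts per base (SD, n = 16) and was the 15th of 87 distinct Snord features by this measure. Snord33 followed at 12.1 ± 2.42 (SD, n = 16), rank 41, and Snord34 at 5.09 ± 1.48 (SD, n = 16), rank 54. Snord35a was lowest at 0.554 ± 0.225 (SD, n = 16), rank 75. This order was the same in 16 of 16 libraries. The ranges of neighbours over the libraries did not overlap, since the lowest Snord32a value per base was 52.9 against a highest Snord33 value of 16.3. Snord33 did not go below 8.04 where Snord34 reached at most 7.18, and Snord34 did not go below 2.54 where Snord35a reached at most 1.05. Small RNA libraries favour some RNA ends and lengths over others, and the part of this in the order was not tested.

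**Figure D2:**
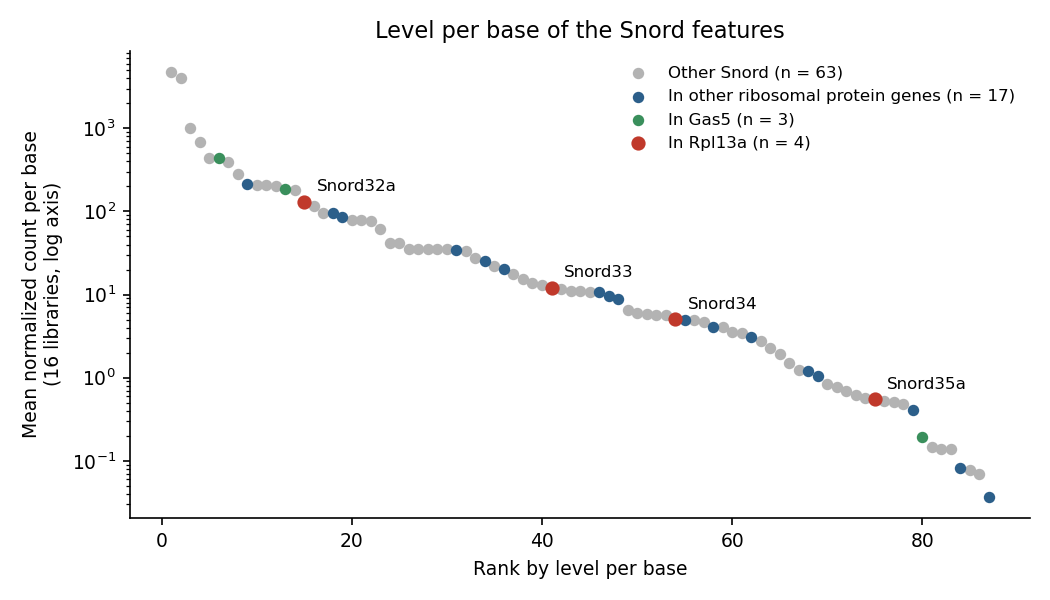
Mean normalized count per base over 16 libraries (log axis) against rank for 87 distinct Snord features, coloured by host gene. The Rpl13a snoRNAs (red) sit at ranks 15, 41, 54 and 75.

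Snord features hosted by other ribosomal protein genes spanned the same range. The 17 of them lay between 0.0371 and 213 normalized counts per base, with a median of 8.81. Snord21 was the highest at 213. The 4 Rpl13a snoRNAs together made up 0.478% ± 0.0816 (SD, n = 16) of the snoRNA signal of a library, with 0.483% ± 0.0623 in PS19 and 0.473% ± 0.102 in WT (SD, n = 8 each).

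Libraries held 13.2 M to 23.1 M recovered reads, and a read could be counted under several features. Behind the levels stood 4367 to 21818 reads per library for Snord32a, 665 to 2302 for Snord33 and 164 to 845 for Snord34. Snord35a rested on only 15 to 110 reads, so that counting error was a larger part of its spread. The coefficient of variation over 16 libraries was 25.9% for Snord32a, 20.1% for Snord33, 29.1% for Snord34 and 40.7% for Snord35a, beside a median of 28.1% over 86 distinct Snord features tested.

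No difference between PS19 and WT passed the test for any of the 4 snoRNAs, and the genotypes overlapped in each. With limma over all tested features, 0 of the 4 had an unadjusted p-value under 0.05, where 4.0% of 6024 tested features did (241), with 1.86% higher and 2.14% lower in PS19. Their adjusted p-values (Benjamini-Hochberg over all 6024) were each 0.9998, and no feature of the table passed an adjusted p-value under 0.05 with limma (0.00%). The edgeR quasi-likelihood test also called 0 features after adjustment, and DESeq2 called 15, none of them a member. In bulk cortex, fewer cells of a type and less RNA per cell cannot be told apart.

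Snord32a, the most abundant member, ranged from 6819 to 15282 normalized counts in PS19 with a median of 11208, and from 4391 to 15431 in WT with a median of 10820. The lowest WT library was replicate 4 and the highest replicate 7, and all PS19 libraries lay between them. The means were 10888 ± 2535.6 in PS19 and 10773 ± 3220 in WT (SD, n = 8 each). The difference on the log2(value + 1) scale was 0.05 ± 0.23 (SE), and its 95% interval of -0.42 to 0.53 spanned folds of 0.748 to 1.44 (limma p = 0.813; two-sided exact permutation p = 0.829).

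Snord33 had the lowest coefficient of variation of the 4 over the 16 libraries and within WT, but not within PS19. It ranged from 676 to 1370 normalized counts in PS19 with a median of 1057, and from 688 to 1186 in WT with a median of 1014. Its lowest libraries were PS19 replicates 6 and 2 and WT replicate 4, so low values occurred in both genotypes. The means of 1028 ± 252 (SD, n = 8) and 997 ± 155 (SD, n = 8) gave a log2 difference of 0.02 ± 0.19 (SE), with an interval of -0.38 to 0.42 or folds of 0.767 to 1.34 (limma p = 0.919; exact permutation p = 0.901).

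Snord34, known to guide methylation of 28S rRNA, ranged from 178 to 503 normalized counts in PS19 with a median of 348. In WT it ranged from 191 to 458 with a median of 370. The PS19 libraries fell into 4 at 178 to 275 and 4 at 421 to 503, whereas 7 of the 8 WT libraries lay between 320 and 458. The means were 349 ± 126 (SD, n = 8) and 363 ± 83.4 (SD, n = 8). The log2 difference of -0.10 ± 0.25 (SE) had an interval of -0.62 to 0.41, or folds of 0.651 to 1.33 (limma p = 0.680; exact permutation p = 0.672).

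Snord35a was the least abundant per base and varied most over all 16 libraries, though least of the 4 within PS19, with a coefficient of variation of 17.4% there and 50.7% in WT. It ranged from 27.5 to 54.7 normalized counts in PS19 with a median of 46.7, and from 15.1 to 94.1 in WT with a median of 52.2. The WT libraries held both the lowest (replicate 4) and the 4 highest values (replicates 3, 1, 2 and 7), and only 1 of 8 PS19 libraries exceeded the WT median. The means of 45.0 ± 7.86 (SD, n = 8) and 54.6 ± 27.7 (SD, n = 8) gave a log2 difference of -0.10 ± 0.31 (SE). With DESeq2 and edgeR it was -0.26 and -0.25. The interval of -0.74 to 0.54 was the widest of the members, with folds of 0.601 to 1.45 (limma p = 0.754; exact permutation p = 0.776).

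**Figure D3:**
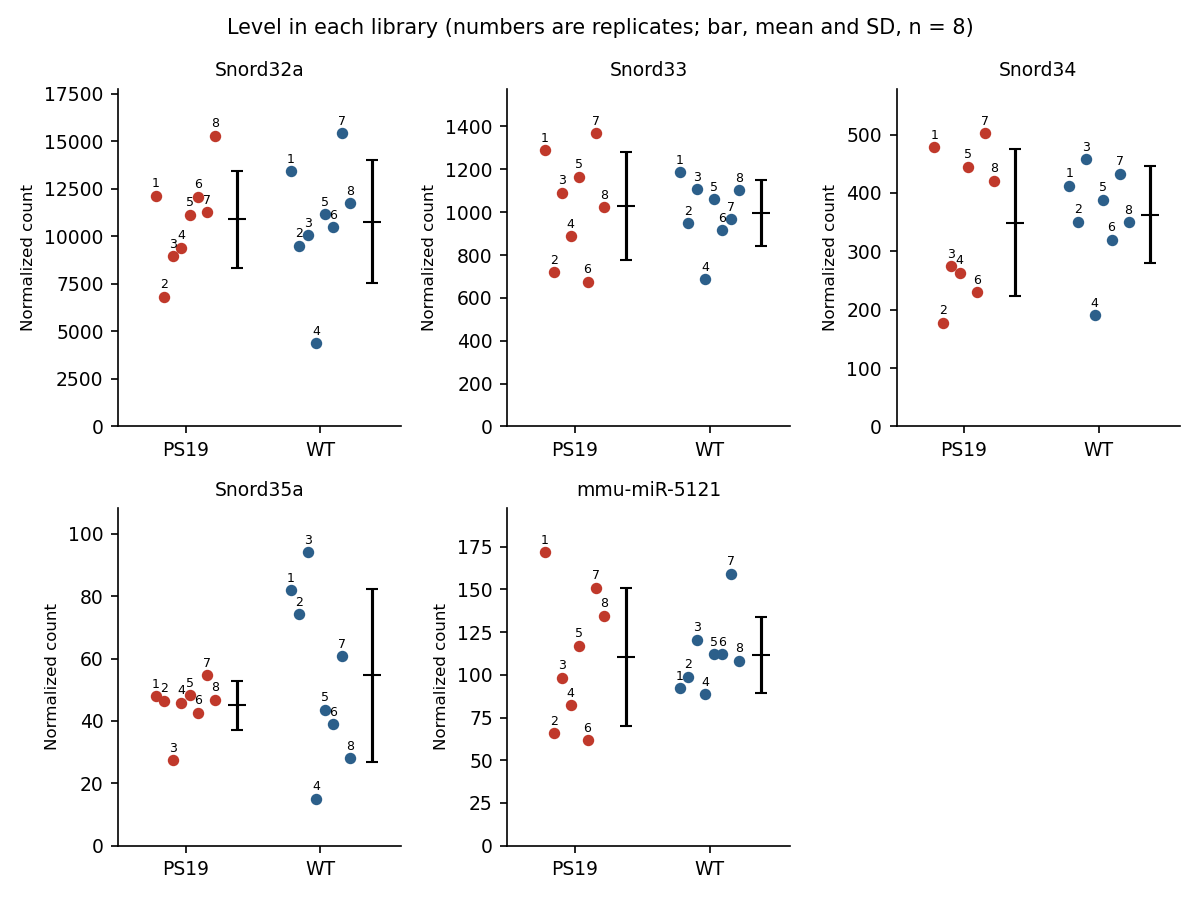
Normalized count of the 4 snoRNAs and of mmu-miR-5121 in each library (points, numbered by replicate), with mean and SD beside them (n = 8 per genotype). PS19 and WT overlap in each panel, and WT replicate 4 is the lowest WT library for the 4 snoRNAs.

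The direction of these small differences rested on single libraries. Without WT replicate 4, the log2 difference of Snord32a was -0.12 and that of Snord33 -0.05, while those of Snord34 and Snord35a went to -0.23 and -0.32. That library held the lowest value of all 16 for 18.1% of 497 tested snoRNA features, the largest share of any library, and its median snoRNA feature stood at 0.864 of the 16-library median. This median was lower in PS19 replicate 3 (0.841) and PS19 replicate 2 (0.856). In WT replicate 4, Snord32a stood at 0.394, Snord33 at 0.660, Snord34 at 0.517 and Snord35a at 0.323 of their medians.

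Genotype was also tied to the letter of the library code, which was G for 8 PS19 and 2 WT libraries and F or A for 6 WT libraries, with no meaning stated. Among libraries coded G, Snord32a averaged 10888 in the 8 PS19 and 6952 in the 2 WT libraries, which had 4391 and 9513. With the letter as a term in limma, Snord32a was higher in PS19 by 0.72 on the log2 scale (unadjusted p = 0.0392, adjusted p = 0.9999), where 1.53% of all features were called in this direction. The same term gave 0.31 for Snord33, 0.34 for Snord34 and 0.38 for Snord35a, none past an unadjusted p-value under 0.05. Letter and genotype cannot be told apart beyond these 2 WT libraries, of which WT replicate 4 was one.

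Markers of other cell types were looked at beside these values. The summed levels of the neuronal, oligodendrocyte, myeloid, red blood cell, liver and muscle markers each overlapped between the genotypes. Of 14 marker miRNAs, miR-155-5p, which activated microglia and other myeloid cells express, averaged 82.5 normalized counts in PS19 and 44.3 in WT (log2 difference 0.78; unadjusted exact permutation p = 0.0204). The 3 myeloid markers summed to 51.2 to 203 in PS19 and 28.0 to 84.6 in WT, but the list did not move one way. miR-142a-3p averaged 3.75 in PS19 and 1.02 in WT (unadjusted exact permutation p = 0.0476), and miR-223-3p 2.62 and 4.71 (p = 0.116 by the same exact test). As the snoRNAs did not pass the test, no result was read against this.

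mmu-miR-5121, the miRNA annotated inside Snord33, was at 110 ± 40.2 normalized counts in PS19 and 111 ± 22.1 in WT (SD, n = 8 each). Its lowest, median and highest values were 61.7, 108 and 172 in PS19 and 88.5, 110 and 159 in WT, so the groups overlapped. The log2 difference was -0.08 ± 0.23 (SE; limma p = 0.736, exact permutation p = 0.711). Its value amounted to 10.9% ± 2.19 (SD, n = 16) of that of Snord33, from 7.78% to 16.4% by library. The row of its hairpin held 0 to 6 reads per library, against 61 to 254 for the mature form.

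Snord features of other host genes were set beside the members. Of 17 in other ribosomal protein genes, 16 were tested, 12 of them higher and 4 lower in PS19, and 0 passed an unadjusted p-value under 0.05 with limma (DESeq2 called 2 and edgeR 1, where they called 4.70% and 4.40% of all tested features). Their median difference was 0.11 on the log2 scale. The median was -0.04 over the 4 Rpl13a snoRNAs, of which 2 were higher and 2 lower, and -0.02 over all 6024 tested features. In Rps3, Snord15a was at 68.9 ± 16.7 in PS19 and 50.6 ± 10.7 in WT (SD, n = 8 each), a log2 difference of 0.42 ± 0.21 (SE; limma p = 0.0559, exact permutation p = 0.0261), and Snord15b of the same host differed by -0.12. Snord15a was under an unadjusted p-value of 0.05 with DESeq2 (0.45), edgeR (0.47), the library total (0.45), a mean of at least 20 (0.42) and the replicate block (0.42), all log2 differences, and under an adjusted one with none of these. Snord100 in Rps12 differed by 0.19, Snord72 in Rpl37 by -0.07 and Snord58b in Rpl17 by -0.42, the last with a WT mean of 873 ± 665 (SD, n = 8) that WT replicate 3 raised. Without it, Snord58b differed by -0.18, and with all libraries DESeq2 gave -0.70 and edgeR -0.68, of which the first was under an unadjusted p-value of 0.05 and neither was called after adjustment.

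Gas5 is a non-coding host gene whose exons have no long reading frame and whose introns hold many box C/D snoRNAs. Of its 3 features named Snord, Snord80 differed by 0.04, Snord47 by -0.32 and Snord78 by -0.06 on the log2 scale, with 0 of 3 past an unadjusted p-value under 0.05. Among the 73 other Snord features, 31 were higher and 42 lower, the median was -0.06 and 0 passed (DESeq2 called 1 and edgeR 0). Of these rows, 10 repeat the values of other Snord116l rows, and with each set of values counted once 31 were higher and 32 lower, with a median of -0.02. The smallest p-values were those of Snord104 (0.59 ± 0.30, SE; limma p = 0.0644, exact permutation p = 0.0889) among the higher and Snord107 (-0.32 ± 0.17, SE; limma p = 0.0752, exact permutation p = 0.0145) among the lower, and neither passed after adjustment (adjusted p = 0.9998 for each). Snord66 and Snord52 were next among the higher at 0.37 and 0.28, and Snord14e and Snord70 among the lower at -0.75 and -0.30, which went to -0.44 without PS19 replicate 6 and to -0.19 without PS19 replicate 3. The other 401 tested snoRNA-class features had a median of -0.11, with 5 called higher and 18 lower at an unadjusted p-value under 0.05, where 1.86% and 2.14% of all tested features were. Over all 497 tested snoRNA-class features the median was also -0.11.

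**Figure D4:**
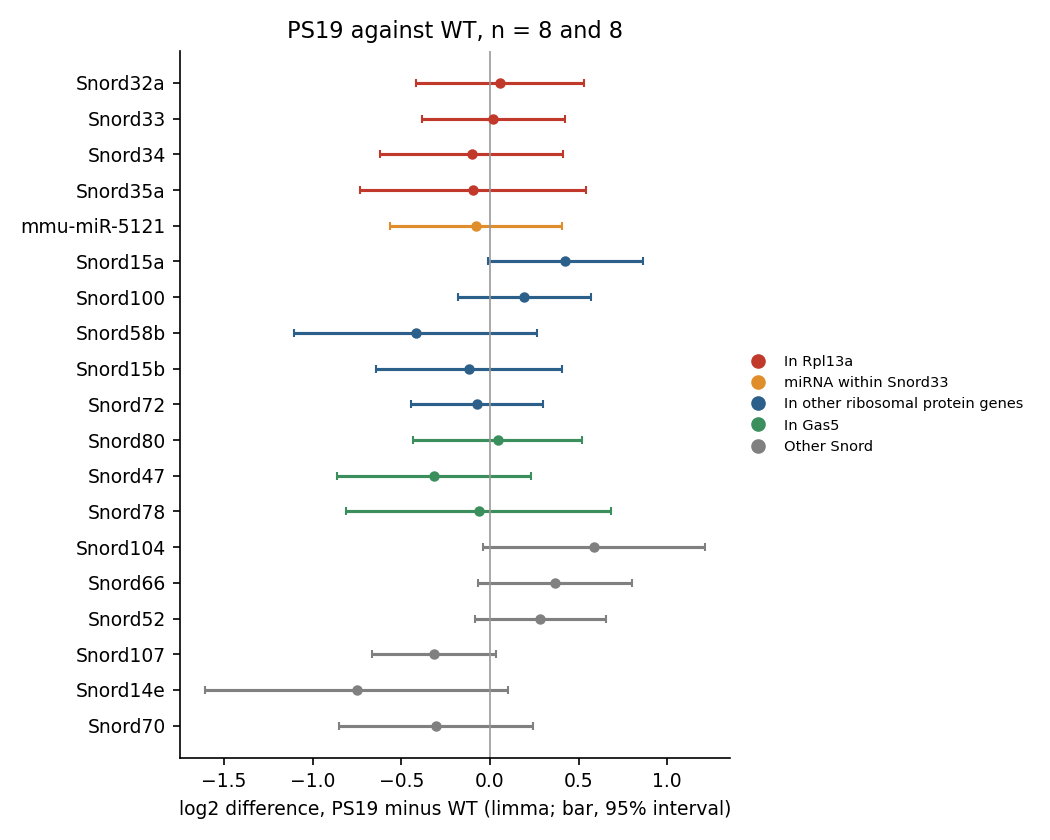
log2 difference between PS19 and WT (limma, n = 8 and 8) with its 95% interval for the 4 Rpl13a snoRNAs, mmu-miR-5121 and the Snord features named from each host group. Each interval includes 0; the Rpl13a snoRNAs lie between -0.10 and 0.05.

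The 4 snoRNAs share a host gene, and the Pearson r between pairs of them ranged from 0.402 to 0.882. Differences between these values were not tested. On the log2 scale over 16 libraries, Snord33 and Snord34 went together (Pearson r = 0.882, Spearman rho = 0.841; permutation p = 4e-05 and 8e-05, adjusted p = 0.00022 and 0.00044 over 11 relations). Without the 2 libraries with the most extreme Snord33 values, r was 0.830, and within PS19 and within WT it was 0.896 and 0.885 (n = 8 each). Snord32a and Snord34 had r = 0.730 and rho = 0.574 (permutation p = 0.00121 and 0.0220, adjusted p = 0.00333 and 0.0485), but r was 0.410 without PS19 replicate 2 and WT replicate 4. Snord32a and Snord33, which guide neighbouring sites of 18S rRNA, had r = 0.547 and rho = 0.400 (permutation p = 0.0269 and 0.126, adjusted p = 0.0434 and 0.154). Without the same libraries this r was 0.0459, so that the relation rests on them. Within PS19 and within WT, r was 0.370 and 0.821 for Snord32a with Snord33. For Snord32a with Snord34 it was 0.702 and 0.893 (n = 8 each).

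The r of Snord35a was 0.578 with Snord34 (rho = 0.682; permutation p = 0.0176 and 0.00435, adjusted p = 0.0386 and 0.0159). It was 0.572 with Snord32a (rho = 0.374; permutation p = 0.0276 and 0.153, adjusted p = 0.0434 and 0.168) and 0.402 with Snord33 (rho = 0.482; permutation p = 0.125 and 0.0620, adjusted p = 0.152 and 0.0974). Without the 2 most extreme libraries these r were 0.487, 0.163 and 0.0990, so that they rest in part on those libraries. Values of 1 library share its depth, size factor and share of snoRNA, and their part in these relations was not tested. When snoRNA features were scaled to the snoRNA total of the library, r was 0.698 for Snord33 with Snord34, 0.465 for Snord32a with Snord34 and 0.0411 for Snord32a with Snord33, and that of Snord35a was 0.446 with Snord34, 0.436 with Snord32a and 0.198 with Snord33. With reads scaled to the library total, the first 3 of these values were 0.929, 0.817 and 0.734.

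mmu-miR-5121 had a higher r with Snord34 than with Snord33, in which it lies, and the difference between these values was not tested. Its r was 0.755 with Snord33 (rho = 0.665; permutation p = 0.00081 and 0.00594, adjusted p = 0.00297 and 0.0163) and 0.841 with Snord34 (rho = 0.891; permutation p = 3e-05 and 2e-05, adjusted p = 0.00022 for each). Within genotypes, r with Snord33 was 0.937 over the 8 PS19 and 0.238 over the 8 WT libraries, and r with Snord34 was 0.941 and 0.584. Scaled to the library total, r over 16 libraries was 0.882 with Snord33 and 0.893 with Snord34. With miRNAs and snoRNAs scaled to their respective totals, the r over 16 libraries with Snord33 was 0.116 and that with Snord34 was 0.558.

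**Figure D5:**
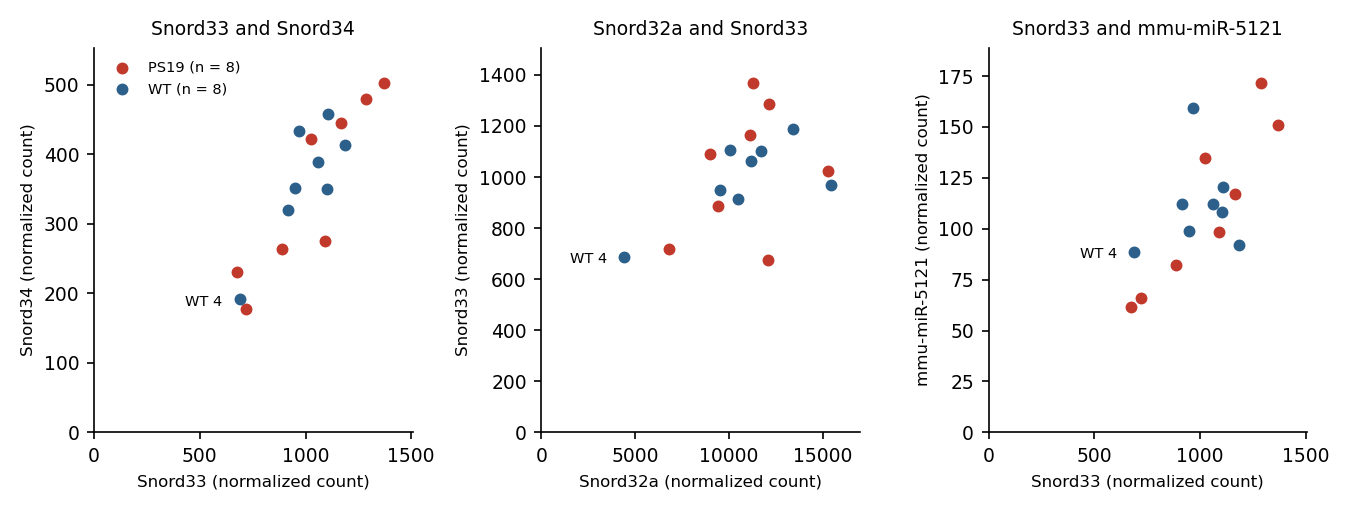
Normalized counts of Snord33 and Snord34, of Snord32a and Snord33, and of Snord33 and mmu-miR-5121 in the 16 libraries, coloured by genotype, with WT replicate 4 marked. The first pair has r = 0.882, the second 0.547 and the third 0.755 on the log2 scale.

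Ratios within a library, given to set libraries and not genes side by side, showed where the balance shifted. The ratio of Snord32a to Snord33 was 11.0 ± 3.49 in PS19 and 10.7 ± 2.68 in WT (SD, n = 8 each), with extremes of 17.9 in PS19 replicate 6 and 6.38 in WT replicate 4. That of Snord33 to Snord34 varied least, at 3.10 ± 0.628 (SD, n = 8) and 2.82 ± 0.422 (SD, n = 8). That of Snord34 to Snord35a was 7.79 ± 2.42 (SD, n = 8) and 8.0 ± 3.23 (SD, n = 8), from 3.81 in PS19 replicate 2 to 12.7 in WT replicate 4. PS19 and WT overlapped in each of the 3 ratios.

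For 3 of the 4 members, features outside Rpl13a had a higher Pearson r with it than the other members did, on the log2 scale over 16 libraries. These values are given without a test, because the closest of 6024 features were picked. Closest to Snord32a were Gm25128, a snoRNA in Ddx39b (r = 0.923), the circRNA row mmu_circ_0006730 (0.922) and Snord45c in Rabggtb (0.920). Gm25128 and mmu_circ_0006730 had near-equal means of 265 and 274 normalized counts. Closest to Snord34 were Gm24837 in Ubap2 (0.927), the circRNA row mmu_circ_0011599 (0.925) and Gm22357 in Gas5 (0.903). Gm24837 and mmu_circ_0011599 likewise had means of 521 and 525. Such rows may count the same reads and so may not be separate neighbours, which was not tested. Closest to Snord33 were Gm23246 in Snhg1 (0.821), Gm22489 (0.820) and Gm22357 (0.789), the last 2 in Gas5, all below its r of 0.882 with Snord34. Snord35a was followed by Snord8 in Chd8 (0.828), Snord71 in Ap1g1 (0.804) and Gm26135 in 9330159M07Rik (0.785). With 1 library left out, r of Snord35a was 0.668 to 0.865 with Snord8, 0.709 to 0.852 with Snord71 and 0.590 to 0.848 with Gm26135. After scaling snoRNAs to the snoRNA total, r of Snord33 with Gm22357 was 0.542, and 0.922 after scaling to the library total. In the same order, these values were 0.834 and 0.952 for Snord32a with Gm25128 and 0.859 and 0.950 for Snord34 with Gm24837. For Snord35a with Snord8 they were 0.790 and 0.816.

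For Snord32a, Snord33 and Snord34, most of the close followers were snoRNAs. Of the 20 features outside Rpl13a with the highest r, 19 were snoRNA-class for Snord32a, 17 for Snord33, 16 for Snord34 and 10 for Snord35a. Of all 6024 tested features, 497 were snoRNA-class. Rows with repeated values were not removed from these counts. The r of Snord32a with the snoRNA share of the library was 0.609, and that of Snord35a with the number of recovered reads 0.679, and their part in the likeness was not tested. No feature had values identical to a member or an r of 0.99 or more with it.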

How the data were processed

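Small RNA of 16 prefrontal cortex samples (10 mg each) had been sequenced single-end on a NextSeq instrument, and the authors aligned reads with STAR 2.5.3a in COMPSRA, which assigns them to ncRNA annotations (mm10), and normalized with DESeq2 1.42.1. The deposited values are a normalized signal, that is, read counts that the authors divided by 1 size factor per library. The table also held the authors' log2 fold changes and their standard errors, a mean signal, a Wald score and p-values, none of which were used. Division by the smallest value above 0 in each library gave whole numbers within 0.001 for 100% of values, so reads were recovered (in WT replicates 4 and 6 the step is near 1, which is weaker evidence). No library column was left out (0 columns).

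Genotype came from the genotype label and the replicate number from the sample title. Values were tested as log2(value + 1) for 6024 features with a mean of at least 5, with limma 3.58.1 (lmFit, eBayes with trend, genotype only; R 4.3.3), two-sided, adjusted by Benjamini-Hochberg over all of them. This scale understates changes of low features. The design allowed for counts or normalized values, and the second applied. Exact permutation tests used all 12870 assignments, and those of correlations 100000 permutations (numpy 2.4.6, scipy 1.17.1). The fit was tested on simulated data. Alternatives were DESeq2 1.42.0 and edgeR 4.0.16 on recovered reads, other scalings, filters and pseudocounts (0.5, 5), a replicate block, the code letter, array weights and leaving out each library. Named features were the members, the 3 features most like each member and the 3 higher and 3 lower of each host list with the smallest p-values, of which 1 feature is not reported here. The members and lists were chosen with earlier results of these data known. mmu-miR-5121 and the alternatives for levels and likeness were added after the data were seen. Positions, hosts and sequences came from GENCODE M21 (GRCm38; 1530 of 1531 symbols of features other than circRNAs, miRNAs and tRNAs matched) and RefSeq. No 2 libraries of a group agreed within sampling noise (chi-square per degree of freedom of at least 38.1). Each library is 1 mouse. The sex of each mouse was not given in the labels, and plasma libraries were not analysed here.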

Additional observations from a re-analysis of the deposited data

Results flagged for a closer look

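Of 34 groups of 8 libraries examined (17 measures in each genotype), 3 held a library whose gap to the next, divided by the range of the group, was above Dixon's 95% limit of 0.526, where chance gives about 1 in 20 groups, or 1.7. Snord35a in PS19 was flagged at 0.558 because PS19 replicate 3 had 27.5 normalized counts and the next library 42.7. mmu-miR-5121 in WT was flagged at 0.545, with WT replicate 7 at 159 and the next library at 121. Recovered reads in PS19 were flagged at 0.546, with 22.6 M in PS19 replicate 7 and 17.96 M in the next library.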

How the results depend on the processing

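For the 4 Rpl13a snoRNAs, 0 of 108 alternative fits passed an adjusted p-value under 0.05 and 1 passed an unadjusted one, that of Snord32a with the code letter (0.72). This term turned the direction of Snord34 (0.34), Snord35a (0.38), mmu-miR-5121 (0.15), Snord15b (0.26), Snord72 (0.12), Snord47 (0.090), Snord78 (0.10), Snord14e (0.031) and Snord70 (0.25), all log2. Without turning it, the term moved Snord33 to 0.31, Snord80 to 0.64, Snord100 to 0.34, Snord66 to 0.74 (unadjusted p-value under 0.05) and Snord107 to -0.16. Array weights turned Snord33 (-0.045) and Snord80 (-0.029), edgeR mmu-miR-5121 (0.012), Snord15b (0.0053) and Snord78 (0.24), DESeq2 Snord78 (0.23) and a pseudocount of 5 Snord78 (0.016). Without a turn, DESeq2 moved Snord32a to 0.022, Snord33 to 0.051 and Snord34 to -0.047, edgeR Snord33 to 0.076 and Snord34 to -0.025, the library total Snord33 to 0.044, and array weights Snord34 to -0.19 and Snord35a to -0.0059. Leaving out 1 library gave -0.12 to 0.15 for Snord32a, -0.054 to 0.10 for Snord33, -0.23 to 0.022 for Snord34, -0.32 to 0.041 for Snord35a, -0.18 to 0.026 for mmu-miR-5121, -0.23 to 0.0086 for Snord15b, -0.096 to 0.11 for Snord80 and -0.23 to 0.17 for Snord78. Of the other named features, Snord14e (-1.02 to -0.44), Snord70 (-0.41 to -0.19), Snord47 (-0.43 to -0.19), Snord72 (-0.15 to -0.013), Snord58b (-0.56 to -0.18) and Snord100 (0.13 to 0.26) moved by over 1.5 times.

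Features with an unadjusted p-value under 0.05 numbered 680 without the filter (more features tested), 136 with a mean of at least 20 (fewer tested), 419 with the replicate block, 418 with array weights, 124 with the code letter (92 higher in PS19) and 171 to 321 with 1 library left out, against 241. DESeq2 called 15 after adjustment. With the letter, 1 of the 4 members was called. Of the Snord features in other ribosomal protein genes, DESeq2 called 2, and edgeR, the library total, a mean of at least 20 and the block 1 each, and 0 to 1 were called with 1 library left out. Of the other Snord features, 4 were called with the letter, 2 with class totals, the block and array weights, 1 with DESeq2, the library total, no filter and a mean of at least 20, and 0 to 3 with 1 library left out. Of the other snoRNA-class features, edgeR called 15, the block 52, the letter 8, array weights 53, and 15 to 43 were called with 1 library left out (15 without PS19 replicate 2, 4 or 6, 43 without PS19 replicate 8). Except where given, the cause was not tested. Whether replicate numbers pair the mice was not stated and is not settled by these values, and the main fit did not pair them. Same-numbered libraries had correlations of deviations of 0.0446 to 0.456, with 6 of 8 over 0.1 and 2 of 8 libraries closest to their own number. The replicate block, which took Snord15a, Snord104 and Snord107 under an unadjusted p-value of 0.05, left the members' differences at 0.05, 0.02, -0.10 and -0.10. Levels per base stayed within 1 SD under other scalings and with any library left out. Depth limits Snord35a most, with 15 to 110 reads.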
